A study of Homo sapiens with 4 samples.

Results

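Long noncoding RNAs with a systematic name were followed across the DLD1 colorectal cancer cell line and 3 lines derived from it. The members were chosen by symbol and level: a name that starts with LINC (intergenic) or ends in -AS and digits (antisense to a named gene), and a value of at least 0.5 RPKM in the highest of the 4 lines. RPKM is a read count divided by gene length and by library size, so levels of different genes can be set side by side. The rule found 202 members among 57746 rows of the table, 67 with a LINC name and 135 with an antisense name. Of the rows with such names that were left out, 719 were listed at 0 in all 4 lines and 578 lay above 0 but under 0.5 RPKM. The highest of the 4 values selected the members, so levels near that threshold are a description and support nothing. An RNA that reached 0.5 RPKM only in the class where it stood highest had to differ, which was the case for 27 members that passed through the mesenchymal lines alone and for 7 that passed through the epithelial lines alone.

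Long noncoding RNAs are transcripts of RNA polymerase II that are spliced and capped like messenger RNAs but hold no long reading frame. Some act at their own locus on the neighbouring gene, some bind proteins or microRNAs elsewhere in the cell, some host small nucleolar RNAs in their introns, and for many no function is known. Antisense RNAs often start close to the promoter of a coding gene and run away from it on the other strand, while others overlap the body of the gene they are named for. In colorectal cancer several of them are studied for their part in epithelial-mesenchymal transition, in which epithelial cells loosen their junctions and take up mesenchymal genes such as VIM.

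DLD1 is an established human colorectal cancer line, labelled as the epithelial parent. SA was derived from colonies in soft agar and SPH from colonospheres, and both carry the label mesenchymal. METS was derived from a lung metastasis of a xenograft, that is, of DLD1 cells grown in an animal host, and is labelled epithelial. No genetic change, agent or time point is named for any line, and all 4 were kept in McCoy's 5A medium with serum. Each line gave 1 library of total RNA, so no difference between a pair of lines has a replicate check, and whether a derived line is 1 clone or a pool is not stated. The class comparison of SA and SPH against DLD1 and METS measures only the spread between the 2 lines of a class.

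Of 6 epithelial markers, EPCAM (212 to 263 RPKM), CDH1 (94.5 to 115) and CDX2 (27.58 to 35.99) held similar levels in all 4 lines, the mesenchymal ones included. The keratins did not. KRT8 stood at 565.38 RPKM in SA and 587.37 in SPH, against 817.09 in DLD1 and 1084.21 in METS, and KRT18 had the same order. KRT20 stood at 21.92 RPKM in DLD1, against 4.06 in SA, 3.18 in SPH and 0.50 in METS. Of the 2 mesenchymal markers, VIM stood at 12.48 RPKM in SA and 12.19 in SPH, against 0.18 in DLD1 and 0.22 in METS, while ZEB1 reached at most 0.26 RPKM. Markers of other cell types were near 0: the 6 fibroblast markers summed to 0.22 to 0.49 RPKM with DCN at 0, the 3 leukocyte markers to 0.07 to 0.40 RPKM with PTPRC and CD3E at 0, and endothelial CDH5 was at 0 in all lines. In bulk RNA of this kind, fewer cells with an RNA and less RNA per cell cannot be told apart. The step size of the low values put 1 RPKM of a 1 kb transcript at between 48.5 reads (SA) and 53.8 reads (DLD1), estimated from 172 to 200 short genes.

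Most members were scarce. The highest of the 4 values was under 1 RPKM for 65 members and at least 5 RPKM for 29, with a median of 1.525 RPKM. No member was listed at 0 in any line, and 61 lay under 0.5 RPKM in their lowest line. Just inside the threshold lay LINC00618 (highest value 0.50 RPKM), MLLT4-AS1 (0.50), LINC00894 (0.51), LINC00346 (0.52) and LINC00893 (0.52). Just outside it lay HYI-AS1 (0.49), SMC5-AS1 (0.49), FOXN3-AS1 (0.48), KCTD21-AS1 (0.48) and LINC00242 (0.48). RefSeq held an entry for 201 members, 54 of them under another symbol. For 185 the entry is a long noncoding RNA and for 14 it is now a coding gene, so a small part of these rows counts messenger RNA: LINC00493 is the small membrane protein gene SMIM26, LINC00998 is SMIM30 and LINC00116 is the mitochondrial microprotein gene MTLN. Another naming change concerns 21 members that RefSeq now calls divergent transcripts of a neighbour.

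The first question was whether the RNAs follow the class in the labels. No member passed the class test (limma-trend on log2(RPKM + 0.1), Benjamini-Hochberg adjusted p under 0.05 over 13090 genes), where 0.191% of all genes passed. The smallest adjusted p among members was 0.17 (limma-trend), and without the variance trend DLGAP1-AS2 alone passed at adjusted p = 0.03 (limma without trend). In that setting 64 of all 13090 genes passed. At an unadjusted p under 0.05 stood 32 members (15.8%), 31 of them higher in the mesenchymal lines, against 9.13% of all genes. Of those 1195 genes, 757 were higher in the mesenchymal lines and 438 lower, so all genes leaned this way too. Some of the 32, DLGAP1-AS2 and VIM-AS1 among them, reached 0.5 RPKM in the mesenchymal lines alone. Both mesenchymal lines lay above both epithelial lines for 94 members (46.5%), against 26.2% of all genes. Both lay below for 12 members (5.94%), against 12.8% of all genes. Overlap between the classes was found for 96 of the 202 members and 7985 of the 13090 genes. LINC and antisense names gave near shares, with 31 of 67 (46.3%) and 63 of 135 (46.7%) above in both mesenchymal lines.

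Members were ranked by the smallest of the 4 differences between a mesenchymal and an epithelial line, and the first in this direction was DLGAP1-AS2, an antisense RNA named for DLGAP1, the gene of a postsynaptic scaffold protein. Its level was 1.06 RPKM in SA and 1.14 in SPH, against 0.25 in DLD1 and 0.30 in METS. Each mesenchymal line stood well above each epithelial line, and the smallest difference was 1.54 on the log2(RPKM + 0.1) scale. DLGAP1-AS2 reached 0.5 RPKM in the mesenchymal lines alone, so by the selection rule a difference in this direction was fixed in advance. The class difference below is thus a description of its size. The class difference was 1.68 ± 0.28 (log2, SE, 2 lines per class, limma-trend adjusted p = 0.17). DLGAP1 itself stayed at 0.01 to 0.09 RPKM, and its start lies 241621 bases from that of the antisense RNA, far outside the shown window.

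VIM-AS1, antisense to the vimentin gene, stood at 0.36 RPKM in SA and 0.66 in SPH, against 0.07 in DLD1 and 0.03 in METS. These levels are low, about 8 reads in DLD1 and 3 in METS against 35 in SA and 70 in SPH by the depth estimate, and the classes did not overlap. The class difference was 1.99 ± 0.51 (log2, SE, limma-trend adjusted p = 0.36). HOXD-AS2, from the HOXD cluster of homeobox genes, stood at 0.68 RPKM in SA and 0.65 in SPH, against 0.26 in DLD1 and 0.18 in METS. SA and SPH were almost level, with a class difference of 1.27 ± 0.34 (limma-trend adjusted p = 0.38). EPB41L4A-AS2 stood at 0.38 RPKM in SA and 0.64 in SPH, against 0.04 in DLD1 and 0.14 in METS. Its DLD1 value corresponds to about 3 reads, and its class difference was 1.70 ± 0.51 (limma-trend adjusted p = 0.44). VIM-AS1, HOXD-AS2 and EPB41L4A-AS2 also reached 0.5 RPKM in mesenchymal lines alone, so their highest mesenchymal value had to exceed both epithelial values.

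The promoters of these 4 RNAs, and of the first member in the other direction, LINC00524, are shown because these members led the ranking by smallest difference. By the mean class difference other members, LINC00261 among them, lay above HOXD-AS2. LINC00524 was added to the 4 after its values were seen. Sequences are RefSeq's on GRCh38.p14, 250 bases before to 50 after the start, on the strand of the RNA. They lie at chr18:3603487-3603786 on the plus strand (DLGAP1-AS2), chr10:17226849-17227148 on the minus strand (VIM-AS1), chr2:176137049-176137348 on the minus strand (HOXD-AS2), chr5:112419333-112419632 on the plus strand (EPB41L4A-AS2, RefSeq's EPB41L4A-DT) and chr14:101407873-101408172 on the minus strand (LINC00524). Capitals mark a match on either strand to any of 5 short motifs. The first is CAGGTG, an E-box of the kind that the repressors of the ZEB and SNAI families bind. Searched beside it were ATCAAAG, the form bound by TCF and LEF factors in WNT signalling, and TGANTCA, the form bound by the AP-1 dimers of JUN and FOS. The last pair were the TATA box, spelled TATAAA, and the motif of the factor NF-Y, spelled CCAAT.
DLGAP1-AS2: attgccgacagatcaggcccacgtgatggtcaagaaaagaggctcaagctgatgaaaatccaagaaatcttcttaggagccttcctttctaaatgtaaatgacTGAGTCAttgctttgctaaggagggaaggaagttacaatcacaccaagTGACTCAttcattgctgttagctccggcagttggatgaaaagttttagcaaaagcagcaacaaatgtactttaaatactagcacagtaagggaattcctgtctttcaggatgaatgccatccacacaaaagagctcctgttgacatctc
VIM-AS1: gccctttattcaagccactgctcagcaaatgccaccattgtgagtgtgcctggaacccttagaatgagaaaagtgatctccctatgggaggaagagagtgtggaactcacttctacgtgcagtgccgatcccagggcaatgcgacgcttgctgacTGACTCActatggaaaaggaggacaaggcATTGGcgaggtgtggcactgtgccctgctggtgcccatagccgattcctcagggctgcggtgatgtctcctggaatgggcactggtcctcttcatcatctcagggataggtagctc
HOXD-AS2: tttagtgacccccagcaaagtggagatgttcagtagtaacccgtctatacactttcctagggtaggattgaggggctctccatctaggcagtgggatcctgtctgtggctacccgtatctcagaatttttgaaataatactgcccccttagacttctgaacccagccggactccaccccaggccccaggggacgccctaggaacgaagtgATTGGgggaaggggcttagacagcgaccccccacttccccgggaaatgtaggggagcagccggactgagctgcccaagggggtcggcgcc
EPB41L4A-AS2: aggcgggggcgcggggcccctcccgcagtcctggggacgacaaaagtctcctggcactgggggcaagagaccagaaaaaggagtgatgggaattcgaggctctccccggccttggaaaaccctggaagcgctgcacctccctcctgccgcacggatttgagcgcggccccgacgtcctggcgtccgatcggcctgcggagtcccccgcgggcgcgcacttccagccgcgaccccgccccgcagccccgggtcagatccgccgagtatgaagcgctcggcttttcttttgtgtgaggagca
LINC00524: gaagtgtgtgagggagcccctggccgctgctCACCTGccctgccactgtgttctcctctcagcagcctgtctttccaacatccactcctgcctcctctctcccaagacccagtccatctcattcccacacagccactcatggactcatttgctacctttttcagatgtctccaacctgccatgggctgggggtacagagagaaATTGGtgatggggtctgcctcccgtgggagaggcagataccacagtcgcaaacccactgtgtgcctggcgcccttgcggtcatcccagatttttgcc

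The DLGAP1-AS2 window held 2 AP-1 strings, the VIM-AS1 window 1 AP-1 string and 1 CCAAT, and the HOXD-AS2 window 1 CCAAT. No searched string occurred in the EPB41L4A-AS2 window, and this RNA starts 306 bases from the EPB41L4A start. VIM-AS1 starts 1343 bases from the VIM start. The LINC00524 window held 1 E-box string and 1 CCAAT. RefSeq gives some RNAs several starts, and 160 members had 202 promoter windows in all. The AP-1 motif occurred in 12.4% of these windows, against 7.68% of 34914 other promoters and 10.3% of the 12715 other long noncoding RNA promoters among them. CAGGTG occurred in 19.8% of member windows, 20.6% of other promoters and 21.7% of other long noncoding RNA promoters. The TATA box occurred in 5.94%, 11.6% and 15.2% of these 3 sets, the TCF/LEF motif in 1.49%, 2.62% and 3.74%, and the NF-Y motif in 36.1%, 34.6% and 34.5%. The median GC content of the windows was 64.33% for members, 62.33% for coding genes and 49.67% for other long noncoding RNAs, so in base composition the member promoters lay near those of coding genes. A match is a description of letters, not of binding.

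A further 4 members had both mesenchymal lines well above both epithelial lines. LINC00261, an endoderm RNA from the locus of the transcription factor gene FOXA2, stood at 0.50 RPKM in SA and 0.74 in SPH, against 0.21 in DLD1 and 0.08 in METS (class difference 1.59 ± 0.45, limma-trend adjusted p = 0.41). SERTAD4-AS1 stood at 1.76 RPKM in SA and 1.94 in SPH, against 0.87 in DLD1 and 0.63 in METS (1.21 ± 0.23, limma-trend adjusted p = 0.23). RASSF8-AS1, named for a Ras-association domain gene, stood at 0.93 RPKM in SA and 1.14 in SPH, against 0.41 in DLD1 and 0.44 in METS (1.11 ± 0.27, limma-trend adjusted p = 0.33). For PSMG3-AS1, named for a proteasome assembly chaperone, the levels were 0.88 RPKM in SA and 0.93 in SPH, against 0.50 in DLD1 and 0.24 in METS (1.15 ± 0.36, limma-trend adjusted p = 0.46). In all 4 SPH was the highest line, and METS was the lowest in each but RASSF8-AS1. LINC00261 and RASSF8-AS1 reached 0.5 RPKM in the mesenchymal lines alone and so had to differ, while SERTAD4-AS1 and PSMG3-AS1 also reached it in DLD1.

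In the other direction the differences were smaller, apart from 1 RNA. LINC00524 stood at 0.39 RPKM in SA and 0.36 in SPH, against 0.71 in DLD1 and 2.29 in METS (class difference -1.55 ± 0.52, limma-trend adjusted p = 0.48). METS stood apart from the other lines here, and the DLD1 value rests on about 16 reads. FAM222A-AS1 stood at 0.29 RPKM in SA and 0.27 in SPH, against 0.64 in DLD1 and 0.41 in METS (-0.69, limma-trend adjusted p = 0.65). UXT-AS1, named for a chaperone-like cofactor gene, stood at 0.47 RPKM in SA and 0.44 in SPH, against 0.62 in DLD1 and 0.85 in METS (-0.58, limma-trend adjusted p = 0.64). AGAP2-AS1 had this order at a higher level, 4.17 RPKM in SA and 3.93 in SPH, against 5.32 in DLD1 and 4.75 in METS (-0.31, limma-trend adjusted p = 0.58). THAP9-AS1, NEBL-AS1, P4HA2-AS1 and LINC01155 differed by -0.67 to -0.27 with every value between 0.40 and 1.02 RPKM. LINC00524, FAM222A-AS1 and UXT-AS1 reached 0.5 RPKM in epithelial lines alone, so their highest epithelial value had to exceed both mesenchymal values.

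**Figure D1:**
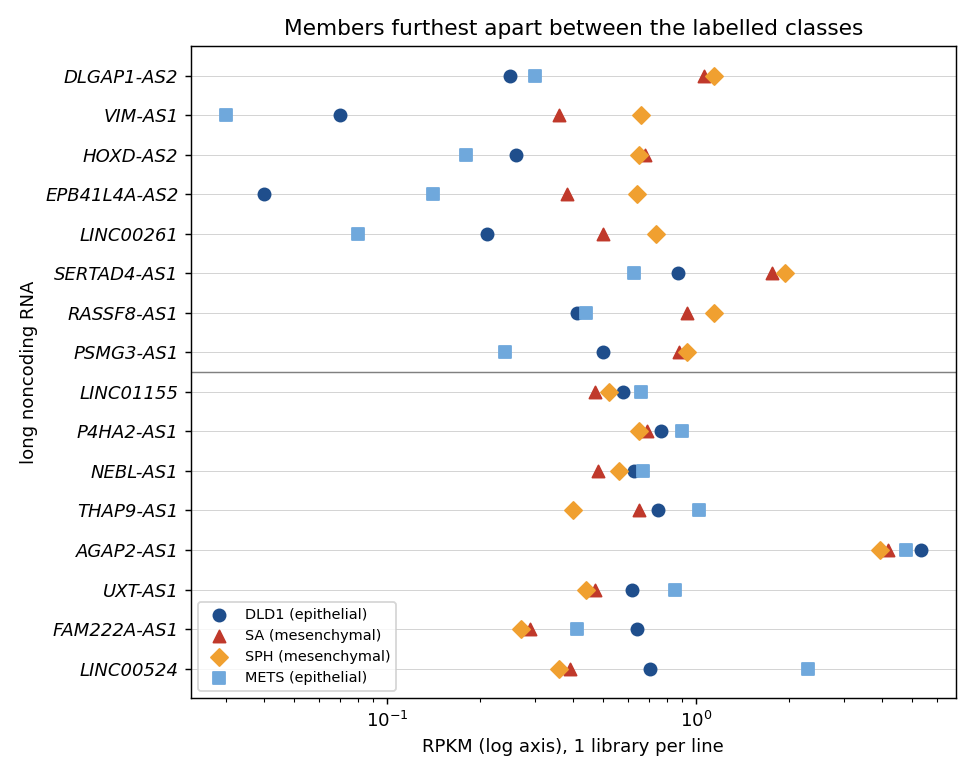
RPKM of the 16 members furthest apart by the smallest of the 4 differences across the classes, on a log axis, 1 point per line (1 library each, no error bars), with the 8 higher in SA and SPH above the grey rule and the 8 lower below it. The red and orange mesenchymal points lie to the right of both blue points from DLGAP1-AS2 (1.06 and 1.14 against 0.25 and 0.30) to PSMG3-AS1, and LINC00524 in METS stands alone at 2.29 RPKM. Many of the 16, DLGAP1-AS2, VIM-AS1 and LINC00524 among them, reached 0.5 RPKM in 1 class alone and so had to differ.

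The same direction was the more frequent one among the other members. The class difference was above 0 for 163 of the 202 members (80.7%), against 61.6% of all genes, and its median was 0.26 against 0.05 on the log2(RPKM + 0.1) scale. SPH was the highest line for 106 members (52.5%, against 31.2% of all genes). SA was highest for 52 (25.7%, against 24.2%), METS for 24 (11.9%, against 23.3%) and DLD1 for 20 (9.9%, against 21.2%). METS was the lowest line for 102 members (50.5%, against 39.4% of all genes) and DLD1 for 56 (27.7%, against 25.4%). The shares of SA as highest and of DLD1 as lowest line were thus near those of all genes. Among the 141 members with at least 0.5 RPKM in all 4 lines, which did not pass through 1 class alone, 63 (44.7%) had both mesenchymal lines above both epithelial ones, against 24.5% of genes under the same filter. With any 1 line left out the share stayed above that of all genes, from 58.0% against 41.9% without METS to 66.5% against 41.8% without SA. These alternatives were chosen after seeing the data. Without DLD1 the median class difference was 0.34 for 199 members and 0.07 for all genes, with METS then the lone epithelial line.

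Scarce genes of any kind leaned the same way, so members were set beside other genes of like level. Between 0.5 and 1 RPKM of mean level the median class difference was 0.29 for 64 members and 0.16 for other genes. From 1 to 2 RPKM it was 0.34 for 46 members and 0.12 for others, and both mesenchymal lines lay above both epithelial lines for 58.7% against 33.0%. From 2 to 5 RPKM the difference narrowed, with 0.15 for 45 members against 0.07 and shares of 31.1% and 28.8%. From 5 to 10 RPKM the 13 members stood at 0.43 against 0.05, and above 10 RPKM the 8 members at 0.14 against 0.015. Under 0.5 RPKM the 26 members (0.38) and other genes (0.31) were near each other. By the annotated type of GENCODE 29, 48 antisense RNAs outside the rule had a median of 0.27, near the 0.29 of 89 antisense members, though both mesenchymal lines lay above both epithelial lines for 33.3% of the former and 49.4% of the latter. Outside the rule the same medians were lower for other types, as 54 other intergenic RNAs had 0.13 and 10926 coding genes 0.04. The lean was not limited to these names. For 95 transcribed unprocessed pseudogenes the median was 0.21. Both mesenchymal lines lay above both epithelial lines for 47.4% of them, near the 46.5% of all members.

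**Figure D2:**
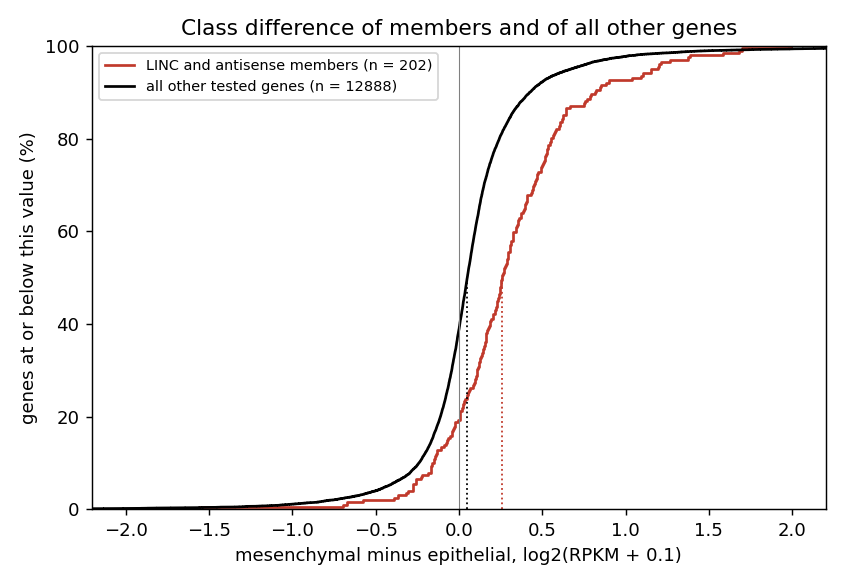
Cumulative share of genes (%) by class difference, mesenchymal minus epithelial on log2(RPKM + 0.1), for the 202 members (red) and 12888 other genes (black), with dotted lines at the medians. The red curve runs to the right of the black one through the middle of the range, and 80.7% of members lie above 0; values beyond 2.2 on either side are outside the plot.

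The most abundant members varied little between lines. FAM211A-AS1, the snoRNA host gene now called SNHG29, stood at 109.35 RPKM in SA and 124.67 in SPH, against 96.11 in DLD1 and 124.13 in METS. HOXB-AS3, reported to encode a small peptide in colon tissue, stood at 26.42 RPKM in SA and 34.38 in SPH, against 31.98 in DLD1 and 19.76 in METS, with METS lowest. FGD5-AS1 lay between 20.86 and 25.20 RPKM, and LINC00493 between 16.51 and 19.23 RPKM. AFAP1-AS1, an RNA raised in several carcinomas, stood at 22.75 RPKM in SA and 15.67 in SPH, against 19.09 in DLD1 and 22.99 in METS: SPH was the lowest line, and SA and METS were level. LINC00685 stood at 15.57 RPKM in SA and 15.18 in SPH, against 12.52 in DLD1 and 11.26 in METS, the clearest order by class at this level (class difference 0.37, unadjusted p = 0.019, limma-trend adjusted p = 0.46). LINC00998 stood at 13.52 RPKM in METS and 8.63 to 9.45 in the other lines. FAM83H-AS1 (10.05 to 11.91), HNRNPU-AS1 (8.37 to 9.69), ASB16-AS1 (5.93 to 9.62), OIP5-AS1 (6.92 to 7.87) and WAC-AS1 (6.47 to 8.82 RPKM) complete the 12 highest. RefSeq lists the symbol HNRNPU-AS1 under the coding gene HNRNPU, so its reads may belong to that gene.

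Of 8 further members known from work on cancer or on epithelial-mesenchymal transition, 6 overlapped between the classes. LINC00152 had both mesenchymal lines above and EPB41L4A-AS1 had both below. Overlap was found for 96 of all 202 members and 7985 of all 13090 genes. Of those named in advance and described elsewhere, VIM-AS1, LINC00261 and FGD5-AS1 did not overlap, while LINC01133, OIP5-AS1 and AFAP1-AS1 did. LINC00152, now CYTOR, stood at 5.72 RPKM in SA and 6.33 in SPH, against 5.54 in DLD1 and 4.20 in METS. ZEB1-AS1, divergent from the gene of the repressor ZEB1, stood at 0.76 RPKM in SA and 1.12 in SPH, against 0.76 in DLD1 and 1.04 in METS, and so did not follow ZEB1 itself, which stood at 0.26 RPKM in SA and 0.23 in SPH, against 0.02 in DLD1 and 0.06 in METS. LINC-PINT, induced by p53, lay between 0.81 and 1.12 RPKM, LINC00460 between 2.75 and 3.65, and LINC00511 between 2.21 and 3.10. GATA6-AS1, from the locus of the endoderm factor GATA6, lay between 2.79 and 4.20, MAPKAPK5-AS1 between 5.61 and 7.62, and EPB41L4A-AS1 between 4.26 and 5.60 RPKM. LINC-ROR lay under the threshold in all lines at 0.32 to 0.37 RPKM, and ZEB2-AS1, HOXA-AS2, LEF1-AS1, CDKN2B-AS1 and ITGB2-AS1 were also under it.

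Against DLD1, the soft agar line SA differed in few members. Of 188 members with at least 0.5 RPKM in at least 1 of the 2 lines, 7 stood at least 2-fold higher in SA (3.72%, against 1.81% of all genes) and 1 at least 2-fold lower (0.532%, against 1.08%). The 3 comparisons with DLD1 share that library. IDI2-AS1, named for an isopentenyl diphosphate isomerase gene, stood at 1.01 RPKM in DLD1 and 2.36 in SA, with 1.56 in SPH and 1.46 in METS (log2 difference SA minus DLD1 1.15). HOXB-AS1 stood at 1.35 RPKM in SA and 0.62 in SPH, against 0.61 in DLD1 and 0.90 in METS (1.03), high in SA but not in SPH. LINC00444, a symbol that RefSeq lists under the coding gene SUCLA2, had the same form, at 0.96 RPKM in SA and 0.35 in SPH, against 0.43 in DLD1 and 0.37 in METS (1.0). DLGAP1-AS2 (1.73), HOXD-AS2 (1.12) and RASSF8-AS1 (1.01) were also among the 7. The lower one was LINC01133, reported to bind a splicing factor in colorectal cancer cells, at 0.49 RPKM in SA and 0.51 in SPH, against 1.13 in DLD1 and 0.27 in METS (-1.06), so that DLD1 stood above all 3 derived lines. With a pseudocount of 1 in place of 0.1 none of these reached 2-fold.

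The colonosphere line SPH had the most members away from DLD1. Of 194 members, 20 stood at least 2-fold higher in SPH (10.3%, against 2.78% of all genes) and 3 at least 2-fold lower (1.55%, against 1.57%). The median difference was 0.25, against 0.04 for all genes. ADIRF-AS1 had the largest difference in RPKM of those 20, at 1.62 RPKM in SA and 9.15 in SPH, against 2.11 in DLD1 and 0.95 in METS (2.07). It stood alone in SPH, and the mesenchymal line SA lay below DLD1. EPB41L4A-AS2 (2.40) and VIM-AS1 (2.16) had larger log2 differences at lower levels. GRPEL2-AS1 stood at 0.51 RPKM in SA and 1.04 in SPH, against 0.23 in DLD1 and 0.30 in METS (1.79), and CHKB-AS1 at 0.43 RPKM in SA and 0.66 in SPH, against 0.16 in DLD1 and 0.24 in METS (1.55). In both, SPH was highest and SA came next. Both rest on few reads, about 5 in DLD1 and 22 in SPH for GRPEL2-AS1 and 10 and 41 for CHKB-AS1. DLGAP1-AS2 stood 1.82 above DLD1, and the other 14 stood 1.02 to 1.44 above it. The lower ones were ZRANB2-AS1 (1.70 RPKM in SA and 0.51 in SPH, against 1.17 in DLD1 and 0.56 in METS, -1.06), LINC01133 (-1.01) and FAM222A-AS1 (-1.0). With a pseudocount of 1 the count of 20 went to 1, and with genes of at least 1 RPKM it was 11.

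SPH and SA, both labelled mesenchymal, also differed from each other. Of 195 members, 6 stood at least 2-fold higher in SPH (3.08%, against 0.958% of all genes) and 5 at least 2-fold lower (2.56%, against 0.794%). ADIRF-AS1 led with 2.43, the largest such difference of all genes in the comparison. KCNIP2-AS1 stood at 0.17 RPKM in SA and 0.58 in SPH (1.33), TRIM31-AS1 at 0.19 and 0.55 RPKM (1.16), ADAMTS19-AS1 at 0.29 and 0.77 RPKM (1.16), LINC00853 at 0.53 and 1.23 RPKM (1.08), and LINC01063 at 0.30 and 0.71 RPKM (1.02). Among the 5 lower in SPH were ZRANB2-AS1 (-1.56), LINC00444 (-1.24), HIF1A-AS1 (0.60 RPKM in SA and 0.23 in SPH, -1.08) and HOXB-AS1 (-1.01). Several of these differences rest on few reads by the depth estimate. In SA and SPH they were about 7 and 26 for KCNIP2-AS1, 5 and 16 for TRIM31-AS1, and 11 and 32 for ADAMTS19-AS1. For LINC01063 they were about 5 and 13, and for HIF1A-AS1 19 and 8, against 452 and 2782 for ADIRF-AS1. The RNAs of this comparison were named after their values were seen.

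In the metastasis line METS the balance was the other way. Of 175 members, 1 stood at least 2-fold higher than in DLD1 (0.571%, against 1.78% of all genes) and 9 at least 2-fold lower (5.14%, against 2.55%). Below DLD1 at any size were 105 of 175, with a median of -0.09, against -0.04 for all genes. Of all 12552 genes compared, 6893 also lay below DLD1 and 5592 above it, so the lean was not limited to members. These counts were made without size factors (0.9764 for METS, 0.9972 for DLD1), and so small a median for all genes depends on that scaling. The higher one was LINC00524 (1.56). LINC01133 (-1.73) was lower in all 3 derived lines, and lowest in METS. CCDC183-AS1 stood at 2.78 RPKM in SA and 2.41 in SPH, against 1.79 in DLD1 and 0.47 in METS (-1.73), about 230 reads in DLD1 against 57 in METS. LINC01123 was the most abundant of the 9, at 6.14 RPKM in SA and 6.94 in SPH, against 6.04 in DLD1 and 2.73 in METS (-1.12). SA, SPH and DLD1 were almost level and METS stood below them.

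OSER1-AS1 had that form at 1.02 RPKM in SA and 1.30 in SPH, against 0.98 in DLD1 and 0.40 in METS (-1.11). LINC00941 stood at 1.42 RPKM in SA and 1.42 in SPH, against 1.48 in DLD1 and 0.64 in METS (-1.09). MAFG-AS1, named for the gene of the transcription factor MAFG, stood at 1.63 RPKM in SA and 2.75 in SPH, against 1.72 in DLD1 and 0.80 in METS (-1.02). LINC00337 stood at 0.81 RPKM in SA and 0.58 in SPH, against 0.76 in DLD1 and 0.26 in METS (-1.26), and ADIRF-AS1 was also among the 9 (-1.07). Set against all 3 other lines at once, METS was at least 2-fold above them for 1 member, LINC00524, against 0.688% of all genes. It was at least 2-fold below them for 5 members (against 1.48%): CCDC183-AS1 (by 1.73), LINC01123 (by 1.12), OSER1-AS1 (by 1.11), LINC00941 (by 1.04) and DDX11-AS1 (by 1.0). With size factors between the libraries, 3 members stood that far below. DDX11-AS1, known as a regulator of sister chromatid cohesion, stood at 1.10 RPKM in SA and 1.05 in SPH, against 1.02 in DLD1 and 0.46 in METS.

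The 6 members from HOX clusters, a group picked after its values were seen, had no common direction in METS: HOXA-AS3, HOXB-AS4 and HOXB-AS1 stood above DLD1, while HOXB-AS3 (-0.69), HOXD-AS2 (-0.36) and HOXD-AS1 (-0.20) stood below it. HOXA-AS3 stood at 0.47 RPKM in SA and 0.58 in SPH, against 0.39 in DLD1 and 0.75 in METS (METS minus DLD1 0.79). HOXB-AS4 stood at 6.64 RPKM in SA and 9.20 in SPH, against 4.19 in DLD1 and 6.19 in METS (0.55), so that DLD1 was the lowest line. HOXB-AS1 differed by 0.49. These 6 also had their highest value in different lines: SA for HOXB-AS1, HOXD-AS1 and HOXD-AS2, SPH for HOXB-AS3 and HOXB-AS4, and METS for HOXA-AS3.

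**Figure D3:**
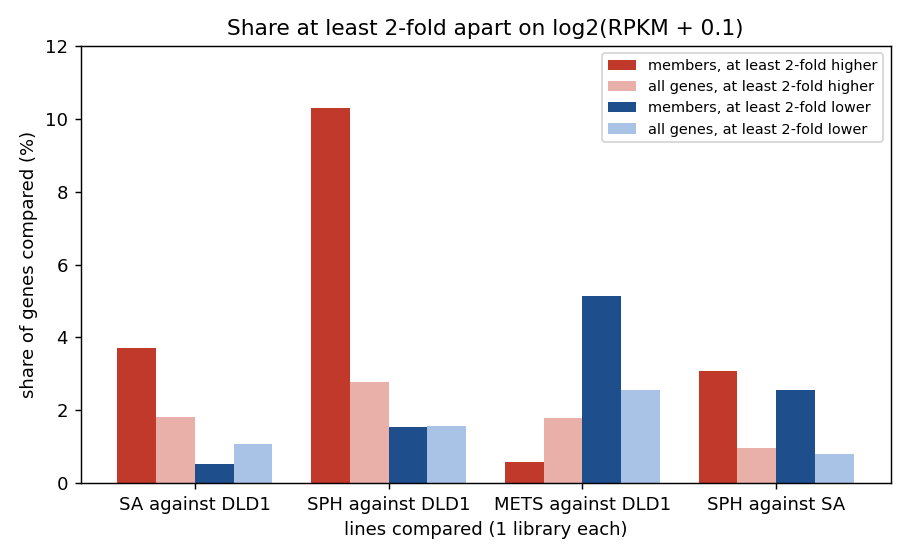
Share (%) of members and of all genes at least 2-fold higher (red tones) or lower (blue tones) in each comparison of 2 lines, on log2(RPKM + 0.1), 1 library per line and no error bars. The highest bar is 10.3% for members higher in SPH than in DLD1, and of the 4 comparisons only in METS against DLD1 do the members' lower calls (5.14%) exceed their higher calls (0.571%).

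Antisense RNAs were set beside the gene they are named for. Of 135 antisense members, 128 had a row for that gene, and the partner had the higher mean level in 95 pairs, with medians of 5.43 RPKM for partners and 1.14 RPKM for members. Whether reads were counted by strand is not given, so where the genes overlap the reads of a pair may be shared. Over the 108 pairs whose partner also reached the threshold, 51 had both RNAs higher in the mesenchymal lines, 7 both lower and 50 opposite signs. The median class difference was 0.29 for members and 0.05 for partners. Across pairs, which share libraries and, in part, loci, Pearson's r was 0.35 and Spearman's rho 0.04, and no p is given. Like numbers came from SPH against DLD1, with 44 pairs both higher, 10 both lower and 51 opposite of 107.

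VIM-AS1 and VIM were the pair furthest out. VIM stood 5.49 (SA) and 5.46 (SPH) above DLD1 on the log2 scale, and VIM-AS1 1.44 and 2.16. EPB41L4A, the gene of a FERM-domain protein, stood at 1.01 RPKM in SA and 0.62 in SPH, against 0.10 in DLD1 and 0.24 in METS, and both RNAs of this pair were at least 2-fold higher in SPH. ADIRF, a fat-cell regulatory factor gene, stood at 4.0 RPKM in SA and 3.80 in SPH, against 1.78 in DLD1 and 1.18 in METS. It was thus near level in SA and SPH, where its antisense RNA differed most (1.62 and 9.15 RPKM). CCDC183 was the 1 partner at least 2-fold away in the opposite direction, at 0.60 RPKM in DLD1 and 1.34 in METS (1.04), against -1.73 for CCDC183-AS1. Of 13 members in these pairs at least 2-fold from DLD1 in SPH, 3 had a partner at least 2-fold away in the same direction. The partners of the others were closer to DLD1: RASSF8 lay between 2.32 and 2.97 RPKM and CHKB between 9.35 and 10.33 RPKM.

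**Figure D4:**
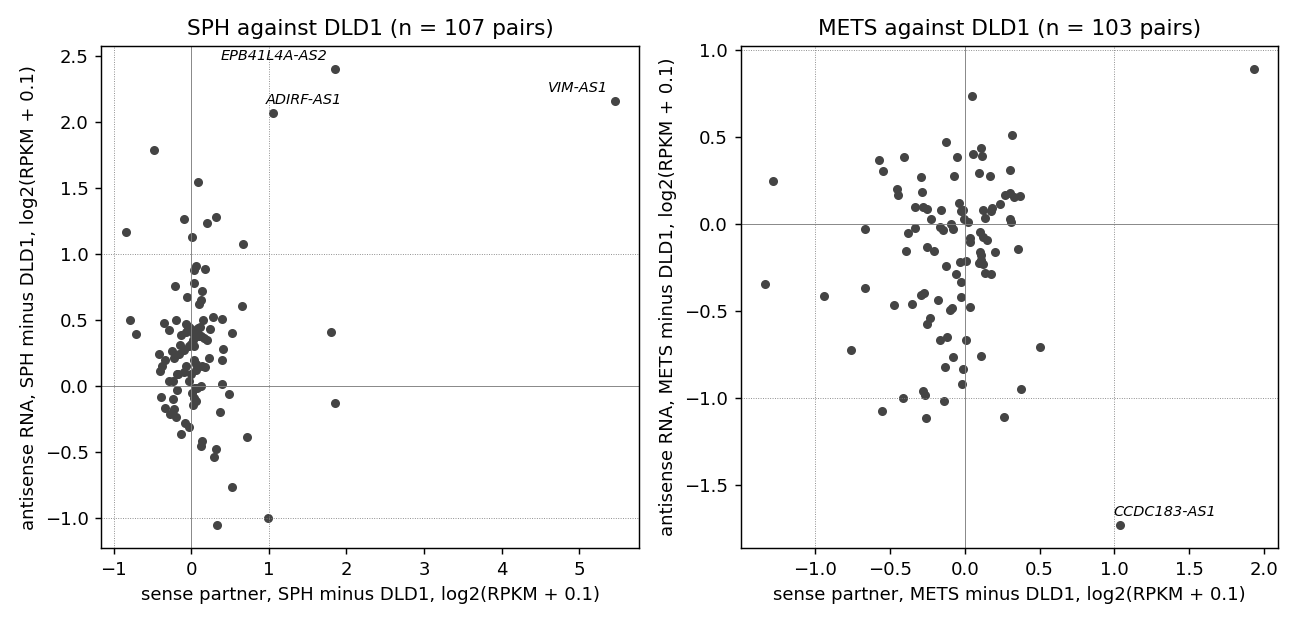
Difference from DLD1 of each antisense RNA (vertical) against that of its sense partner (horizontal), log2(RPKM + 0.1), in SPH (left, 107 pairs) and METS (right, 103 pairs), 1 point per pair. In SPH the points of VIM-AS1, EPB41L4A-AS2 and ADIRF-AS1 lie high on both axes while most others spread up and down near 0 on the horizontal axis, and in METS CCDC183-AS1 lies at the lower right.

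The start sites gave a second view of these pairs. Of the 160 members with a RefSeq promoter, 90 (78 antisense and 12 LINC) start within 1000 bases of a coding gene's start on the other strand, at a median distance of 185 bases. Their median class difference was 0.33, and both mesenchymal lines lay above both epithelial lines for 49 of them (54.4%, against 26.2% of all genes). The other 70 had a median of 0.29, with 33 (47.1%) above. The difference between these arrangements was not tested.

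Other well-known long noncoding RNAs had a smaller median difference than the members. They were not picked for how they moved, though earlier results of these data were known. The list was not matched to the members by level. It holds abundant RNAs such as NEAT1 (101.45 to 132.19 RPKM) and GAS5 (48.12 to 56.31 RPKM), and the 8 members above 10 RPKM had a median of 0.14. Of 59 listed, 50 had a row and 32 reached the threshold, and none of the 32 passed the class test (limma-trend). At an unadjusted p under 0.05 (limma-trend) stood 7 of the 32, against 32 of the 202 members (15.8%) and 9.13% of all genes. Their median class difference was 0.10, and 10 of the 32 had both mesenchymal lines above both epithelial lines, against 26.2% of all genes, while 2 had them below, against 12.8%. PVT1, an RNA from the MYC locus, stood at 2.62 RPKM in SA and 2.48 in SPH, against 1.16 in DLD1 and 1.12 in METS (class difference 1.10 ± 0.17, limma-trend adjusted p = 0.14). HOTAIR, from the HOXC cluster and known for binding Polycomb proteins, stood at 0.58 RPKM in SA and 0.52 in SPH, against 0.16 in DLD1 and 0.11 in METS (1.47, limma-trend adjusted p = 0.37). The 2 with the opposite order were H19 and HCP5. H19, an imprinted RNA, stood at 9.74 RPKM in SA and 14.67 in SPH, against 58.04 in DLD1 and 2892.87 in METS (-5.09, limma-trend adjusted p = 0.47), with METS far above the other lines. HCP5 was found at 0.88 RPKM in SA and 0.71 in SPH, against 1.85 in DLD1 and 1.51 in METS (-0.99, limma-trend adjusted p = 0.32).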

How the data were processed

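Total RNA from 4 cell lines was made into 1 Illumina library per line, as the labels describe. The deposited table gives RPKM with 2 decimals; the authors' unit was read from the values. The submitters' processing notes name hg19 as the build, while for aligner, counting tool, annotation and use of strand nothing is stated (not given in the sources used here). Deposited RPKM were put on the scale log2(RPKM + 0.1), which understates the change of scarce RNAs. Pairs of lines were compared by a 2-fold rule with no test. The class test was limma-trend (R 4.3.3, limma 3.58.1) over all genes whose highest line reached 0.5 RPKM, with Benjamini-Hochberg adjustment, and the fit was tested on simulated data. Reads per gene were estimated from the steps of low values and GENCODE 29 exon lengths, which covers counting error only. Names and promoters came from RefSeq (GRCh38.p14), whose coordinates are not those of hg19. The text names the 12 most abundant members, the 8 highest and 8 lowest per comparison or a part of them, members apart in METS, pairs that moved at least 2-fold together or apart, RNAs named in advance, and the 5 on each side of the threshold; a few others were named after their values were seen. The members and lists were chosen with earlier results of these data known. Alternatives were pseudocounts of 1 and 0.5, other filters, size factors, a 4-fold rule, limma without trend and leaving out each line. Analyses used Python 3.11.15 with pandas 2.3.3. Of the members counted, 1 is not reported by name.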

Additional observations from a re-analysis of the deposited data

How the results depend on the processing

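Counts of members at least 2-fold apart depend on the pseudocount and the fold rule. With a pseudocount of 1 they were 0 higher and 0 lower for SA against DLD1, 1 and 0 for SPH, 0 and 0 for METS, and 1 and 0 for SPH against SA, with 0 and 0 apart in METS. With a pseudocount of 0.5 they were 1 higher and 0 lower for SA, 6 and 0 for SPH, 3 lower for METS, 1 and 1 for SPH against SA, and 2 lower apart in METS. With the 4-fold rule they were 0 and 0 for SA, 3 and 0 for SPH, 0 and 0 for METS, 1 and 0 for SPH against SA, and 0 and 0 apart in METS. With genes of at least 1 RPKM the higher counts were 3 for SA and 11 for SPH, and SPH against SA gave 2 and 2. A larger pseudocount, a stricter filter and a larger fold leave fewer members past the rule by construction. With size factors (0.976 to 1.015) 3 members stood below all others in METS; the cause was not tested.

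The class test gave 1 member without the trend and, with a line left out, 0 to 5, the 5 without DLD1, when 210 of all genes passed in place of 25; the cause was not tested. Over the settings of the class test run with all 4 lines, between 7 and 64 of all genes passed, except 0 with no filter. Members with a class difference above 0 numbered 103 of 124 (83.1%) with at least 1 RPKM in at least 2 of 4 lines and 154 of 202 with size factors, an alternative count chosen after seeing the data. With size factors the median class difference was 0.22 for members and 0.014 for all genes. Both mesenchymal lines then lay above both epithelial lines for 45.5% of members and 21.7% of all genes. With size factors LINC00493 (-0.034), OIP5-AS1 (-0.015) and LINC00894 (-0.023) changed sign.

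Leaving out 1 line turned the sign of the class difference of 28 of the 68 named members at least once. In the full fit the classes of all 28 overlapped, as they had to. A member whose classes do not overlap cannot change sign in this way, so this is no check on such members. On the log2 scale the differences ran FAM211A-AS1 from -0.088 to 0.28, LINC00493 from -0.10 to 0.11, OIP5-AS1 from -0.068 to 0.12, LINC01133 from -1.04 to 0.70, SAPCD1-AS1 from -0.45 to 0.078, ZSCAN16-AS1 from -0.31 to 0.056, LINC00482 from -0.16 to 0.65, ZEB1-AS1 from -0.20 to 0.30, LINC00894 from -0.11 to 0.17 and HNRNPU-AS1 from -0.0003 to 0.17. They ran HOXB-AS1 from -0.23 to 0.78, ZRANB2-AS1 from -0.59 to 0.98, AP4B1-AS1 from -0.11 to 0.63, ADAMTS19-AS1 from -0.74 to 0.41, HOXA-AS3 from -0.45 to 0.35, MLLT4-AS1 from -0.44 to 0.076, LINC00460 from -0.29 to 0.11, LINC00511 from -0.26 to 0.21 and AFAP1-AS1 from -0.42 to 0.12. For the rest they ran GAS6-AS1 from -0.38 to 0.60, LINC-PINT from -0.11 to 0.31, GATA6-AS1 from -0.069 to 0.39, MAPKAPK5-AS1 from -0.073 to 0.36, HOXB-AS3 from -0.085 to 0.61, LINC00998 from -0.54 to 0.10, LINC00641 from -0.61 to 0.15, LINC00337 from -0.13 to 1.13 and LINC00941 from -0.056 to 1.04.

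No paired analysis was possible because each line has 1 library and the labels give no replicate numbers. Depth limits the scarcest members, of which 6 had under 10 estimated reads in DLD1.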

Other observations

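Further values of other long noncoding RNAs follow the same test. SNHG5, a host gene of small nucleolar RNAs, stood at 23.55 RPKM in SA and 22.96 in SPH, against 13.9 in DLD1 and 15.51 in METS (class difference 0.66, limma-trend adjusted p = 0.18), while the other 8 SNHG genes tested differed by -0.10 (SNHG8) to 0.42 (SNHG17). HOTTIP, from the end of the HOXA cluster, stood at 18.27 RPKM in SA and 26.97 in SPH, against 16.93 in DLD1 and 10.77 in METS (0.71, limma-trend adjusted p = 0.53). LUCAT1 stood at 0.55 RPKM in SA and 0.67 in SPH, against 0.22 in DLD1 and 0.13 in METS (1.38, limma-trend adjusted p = 0.39).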
